A study of Mus musculus with 61 samples.

Results

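The clustered protocadherins are cadherin-family adhesion proteins encoded side by side on mouse chromosome 18. They were taken from the deposited expression table by their mouse GENCODE symbols, as every row named Pcdha, Pcdhac, Pcdhb, Pcdhga, Pcdhgb or Pcdhgc followed by a number. This gave 58 of the 43346 rows: 14 in the alpha cluster, 22 in the beta cluster and 22 in the gamma cluster. In mm10 the alpha genes spanned positions 36930184 to 37187661, the beta genes 37264938 to 37524479 and the gamma genes 37661793 to 37841873, all on the plus strand. Of the 58 members, 56 reached 1 TPM (a transcript level scaled for length, with the same total in each library) in at least 2 libraries and were tested. The other two were Pcdha8, whose highest value was 0.55 TPM, and Pcdhb1, whose highest value was 0.10 TPM. The symbol Pcdha11 stood on 2 rows, which are called Pcdha11 upstream and Pcdha11 downstream here by their order on the chromosome. RefSeq names the first of them Pcdha10. In GENCODE M21 the median member shared 53.45% of its exon bases with other members in the alpha cluster, 44.7% in the gamma cluster and 0% in the beta cluster.

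Each protocadherin protein has an extracellular part built of cadherin repeats, a membrane-spanning segment and a cytoplasmic tail. In the alpha and gamma clusters each variable exon has its own promoter and is spliced to a set of constant exons shared by the whole cluster, whereas beta genes are single exons with no shared part. Neurons are known to pick a few of these promoters each, and the resulting combination of surface proteins matches only its own kind and lets the branches of a cell recognise and avoid each other. Promoter choice is known to depend on CTCF and cohesin, which loop a distant enhancer to a promoter, and on DNA methylation, which keeps unused promoters silent. The C-type members (Pcdhac1, Pcdhac2, Pcdhgc3, Pcdhgc4 and Pcdhgc5) lie at the downstream ends of the alpha and gamma clusters. They are known to be used more uniformly than the alternate members.

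The study measured messenger RNA by sequencing in mouse forebrain, midbrain and hindbrain from E10.5 (embryonic day 10.5) to P0 (the day of birth) and in liver from E11.5 to P0. Of the 61 libraries, forebrain had 15, the midbrain and hindbrain 16 each, and liver 14. Of the 31 groups of 1 tissue and 1 stage, 30 had 2 libraries and forebrain at E10.5 had 1. The labels give tissue and stage for every group, and no strain, genotype or treatment. They do not say whether 2 libraries of a group came from separate animals, so the p-values measure the spread between these libraries, which may be technical. The depth of sequencing is unknown, since TPM keeps no read counts.

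Some libraries stood apart. At E15.5 the libraries labelled midbrain had 78.04 and 87.63 TPM of Hoxb3, a hindbrain gene, and those labelled hindbrain had 0.15 and 0.24, whereas the hindbrain libraries at E11.5 had 82.78 and 90.26. The regional comparisons are given with and without E15.5. In addition, 1 column each for midbrain and hindbrain at E16.5 and at P0 carried a stage that differed from its sample record, and the stage in the column header was used. The predicted gene Gm14760 split the libraries into 33 with at most 3.81 TPM and 28 with 7.95 to 75.88 TPM. Both midbrain libraries and 1 of the 2 hindbrain libraries at P0 were in the group with high values. All brain and liver libraries at E11.5 and E14.5, and both forebrain libraries at P0, were in the group with low values. Neuron markers (12 genes) were detected in every brain group, with summed levels of 1287 to 1306 TPM in forebrain at E11.5 and 6663 to 7348 TPM at P0. In liver the same markers summed to at most 17.5 TPM at E11.5 and 12.1 TPM at P0. Astrocyte markers (7 genes) moved too, from 104 to 121 TPM at E11.5 to 339 to 374 TPM at P0 in forebrain and from 126 to 140 TPM to 1031 to 1032 TPM in hindbrain. Hepatocyte markers (8 genes) were also found in brain, with sums of 16.2 to 39.7 TPM in forebrain at E11.5 and 1805 to 2396 TPM at P0. The hindbrain sums were 276 to 278 TPM and 2310 to 2478 TPM, and the midbrain sums 5.02 to 6.05 TPM and 87.0 to 335 TPM. In bulk tissue, fewer cells of a type and less RNA per cell cannot be told apart.

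The 3 clusters differed in when they appeared. At E10.5 the single forebrain library had no alpha and no beta member at 1 TPM or more, but it had 17 gamma members there. In the same library the alpha members summed to 1.27 TPM, the beta members to 2.72 TPM and the gamma members without Pcdhgc4 to 74.88 TPM. Pcdhgc4, the most abundant member, is left out of these gamma sums and described on its own. In forebrain a group mean of 1 TPM was first reached at E12.5 by 5 alpha members and at E13.5 by 5 more, and at E12.5 by 11 beta members. Hindbrain was earlier for these clusters, with 4 alpha and 9 beta members first reaching that level at E11.5, against 1 alpha and 1 beta member in forebrain. Across libraries, the number of members at 1 TPM or more in forebrain went from 20 and 22 at E11.5 to 51 and 52 at E14.5 and 55 in both libraries at P0.

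**Figure D1:**
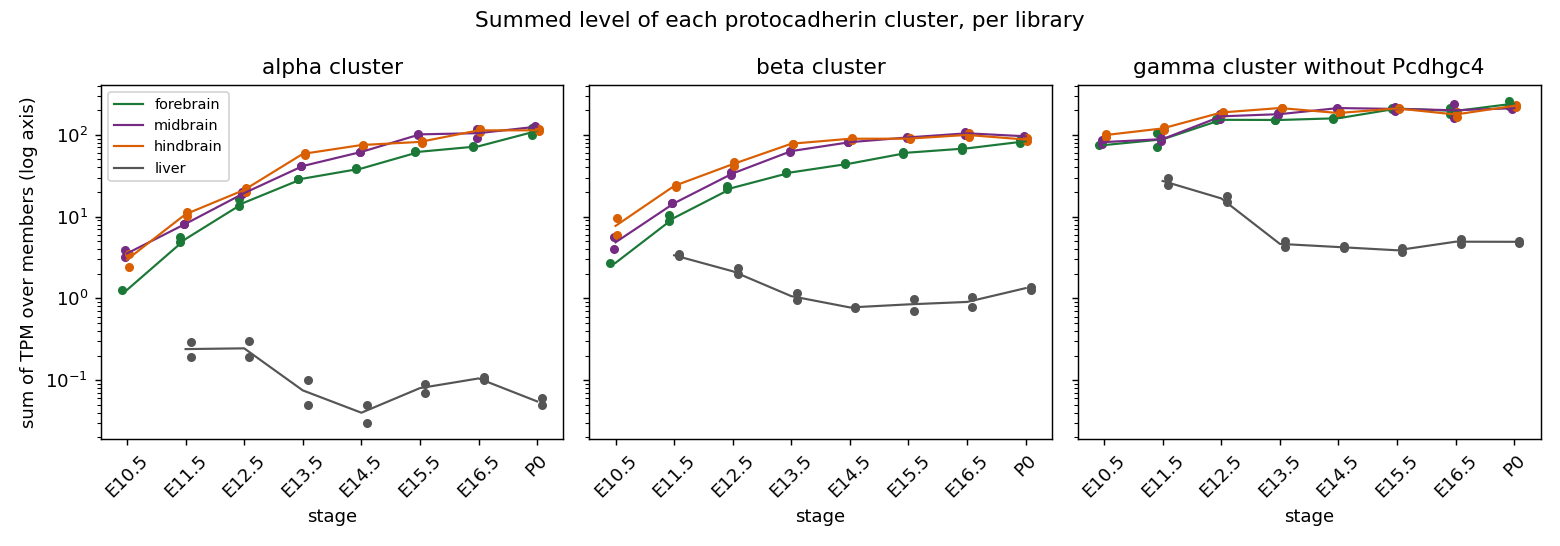
Summed TPM of the alpha cluster, the beta cluster and the gamma cluster without Pcdhgc4 by stage in each tissue, 1 point per library and a line through the group means. Alpha and beta start near 0 in every region and climb to between 80.18 and 128.69 TPM at P0, while gamma already stands at 71.19 TPM or more at E11.5 in brain and falls in liver.

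From E11.5 to P0 the alpha sum had the largest ratio of the 3 clusters in each brain region. In forebrain the alpha sum was 4.96 and 5.69 TPM at E11.5, 38.32 and 39.16 TPM at E14.5, and 100.90 and 122.25 TPM at P0. The ratio of the P0 mean to the E11.5 mean was 21.0, from 17.7 to 24.6 over the pairings of single libraries. The same ratio was 15.4 in midbrain (14.97 to 15.9) and 10.6 in hindbrain (9.83 to 11.47). The beta sum in forebrain was 8.79 and 10.53 TPM at E11.5 and 80.18 and 86.67 TPM at P0, a ratio of 8.64. It was 6.58 in midbrain and 3.70 in hindbrain. The gamma sum without Pcdhgc4 had ratios of 2.74 in forebrain, 2.39 in midbrain and 1.89 in hindbrain, and in forebrain its E11.5 libraries differed from each other, at 71.19 and 104.99 TPM. With Pcdhgc4 the gamma ratios were 3.13, 3.65 and 2.56. The ratio of the alpha sum to the gamma sum without Pcdhgc4 moved from 0.0542 and 0.0697 to 0.452 and 0.472 in forebrain and from 0.0813 and 0.0980 to 0.498 and 0.506 in hindbrain.

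By single genes, most members rose in each brain region. A member was called at a limma adjusted p below 0.05 and a log2 fold change of at least 1 on the log2(TPM + 1) scale, which understates the change of low genes. From E11.5 to P0, 47 of the 56 tested members rose in forebrain, against 19.2% of all 18655 genes tested. In midbrain 47 rose, against 18.3% of all genes. In hindbrain 37 rose, against 16.2% of all genes. No member fell by this rule in any brain region, and a member under 1 TPM at E11.5 could not. In each forebrain library at E11.5 only 1 alpha and 1 beta member stood at 1 TPM or more. Most members of these 2 clusters thus passed the filter through other libraries, so their counts of rises from E11.5 are not independent of the filter. The 9 that were not called in forebrain were Pcdhb2, Pcdhb6, Pcdhga5, Pcdhga9 and the gamma B members Pcdhgb2, Pcdhgb4, Pcdhgb5, Pcdhgb7 and Pcdhgb8, with log2 changes from 0.02 for Pcdhgb8 to 0.95 for Pcdhgb2. By cluster, 13 of 13 alpha, 19 of 21 beta and 15 of 22 gamma members rose in forebrain. The numbers were 12, 20 and 15 in midbrain and 12, 16 and 9 in hindbrain. The median log2 change of alpha members was 2.80 in forebrain, 2.81 in midbrain and 2.34 in hindbrain. For beta members it was 1.67, 1.60 and 1.23, and for gamma members 1.29, 1.17 and 0.84, in the same order. The median over all genes tested was 0.02 in forebrain, -0.01 in midbrain and -0.02 in hindbrain. The neuron markers moved with these members: 12 of 12 rose in forebrain, 11 in midbrain and 8 in hindbrain, and their part in the result was not tested. Astrocyte markers (5 to 6 of 7 rose) and hepatocyte markers (5 of 8 in forebrain, 2 in midbrain and 1 in hindbrain) moved as well, and their part was not tested.

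**Figure D2:**
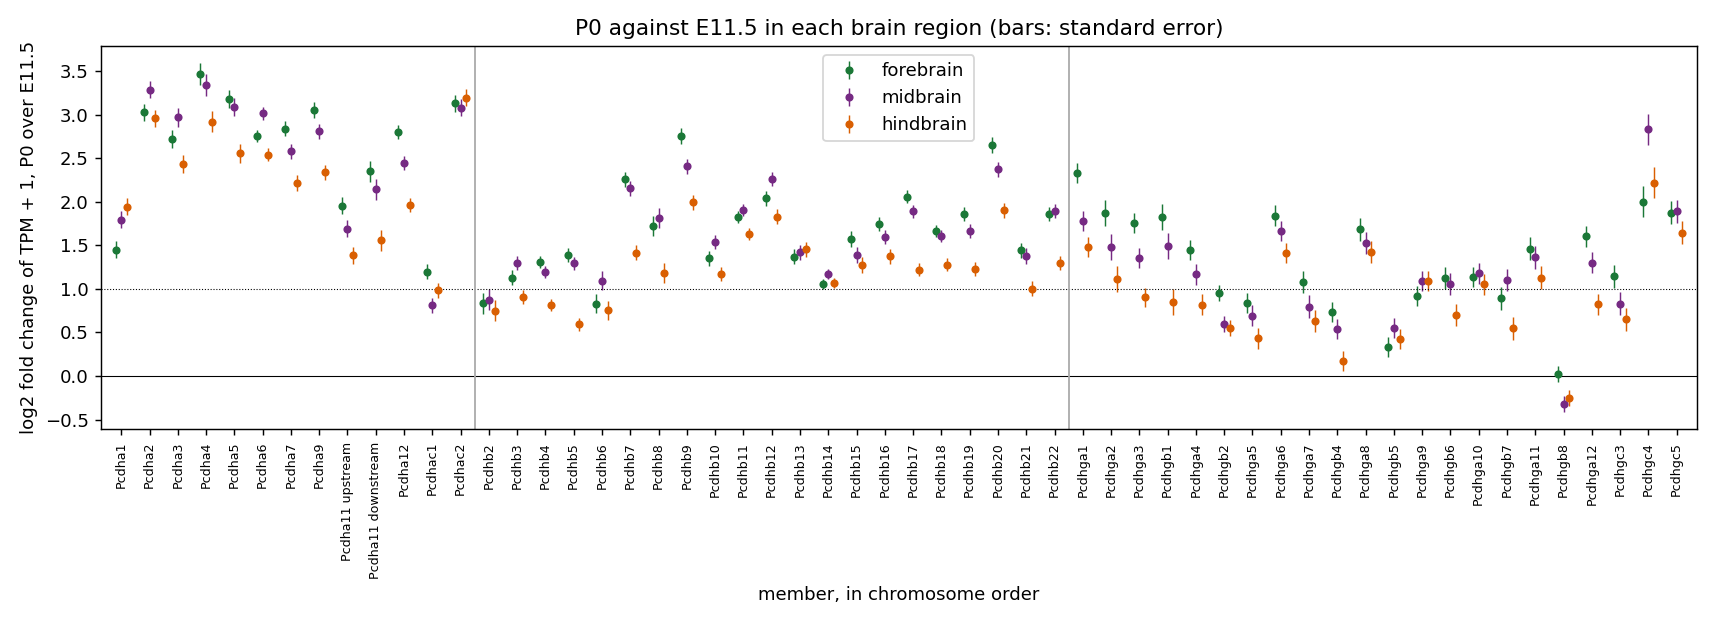
Log2 fold change of TPM + 1 from E11.5 to P0 for each tested member in chromosome order, in forebrain, midbrain and hindbrain, with bars for the standard error and a dotted line at a change of 1. In forebrain Pcdha4, Pcdha5 and Pcdhac2 sit highest, and the gamma B members Pcdhgb4, Pcdhgb5 and Pcdhgb8 lowest, with Pcdhgb8 near 0.

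Among the alternate alpha members, Pcdha4 had 0.18 and 0.17 TPM in forebrain at E11.5, 3.01 and 2.69 TPM at E14.5, and 11.2 and 12.83 TPM at P0. The 3 stages did not overlap. Its log2 change from E11.5 to P0 was 3.47 (SE 0.123, limma adjusted p = 3.72e-23), the largest of any member in forebrain. In hindbrain Pcdha4 started higher, at 0.90 and 0.79 TPM, and reached 14 and 12.02 TPM, a log2 change of 2.92 (SE 0.123). Pcdha2 had 0.50 and 0.34 TPM in midbrain at E11.5 and 12.82 and 12.85 TPM at P0, a log2 change of 3.29 (SE 0.0959). In mean TPM at P0 in forebrain the tested alternate alpha members ran from 1.765 for Pcdha1 to 12.02 for Pcdha4. Pcdha5 and Pcdha9 changed by 3.18 and 3.06 in forebrain. Pcdha1, the tested alpha alternate with the lowest forebrain level at P0, had 1.64 and 1.89 TPM in forebrain and 3.04 and 3.35 TPM in hindbrain.

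Beta members, whose exons are almost unshared, differed in the size of their changes. Pcdhb9 had 0.32 and 0.31 TPM in forebrain at E11.5, 2.98 and 2.93 TPM at E14.5 and 7.48 and 8.30 TPM at P0, a log2 change over the whole period of 2.76 (SE 0.0881). It was the beta member with the largest change in forebrain, followed by Pcdhb20 at 2.65 (SE 0.0879). Pcdhb7 was among the most abundant beta members, and in hindbrain it had 1.84 and 2.13 TPM at E11.5, 8.35 and 8.29 TPM at E14.5 and 7.28 and 6.65 TPM at P0. Its P0 libraries thus lay below its E14.5 libraries, but with the stage of the sample record for the disputed columns the P0 values would be 7.28 and 8.57 TPM and overlap them. At P0 in forebrain the mean level of the tested beta members ran from 1.275 TPM for Pcdhb14 to 9.20 TPM for Pcdhb20. In hindbrain 11 of the 22 beta members had their highest group mean at E16.5 and 4 had it at P0, whereas in forebrain 19 had it at P0. This order rests on the columns with 2 stage labels. With the stage of the record, 0 hindbrain beta members were highest at E16.5 and 16 at P0. Without those columns the numbers were 4 and 11. The use of both settings for these counts was chosen after seeing the data. No single beta member dominated: the effective number of equally used members was 17.1 in forebrain at E11.5 and 18 at P0.

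Gamma members were present early and had smaller median changes. Pcdhga11, the gamma A member with the highest brain level, had 5.0 and 7.17 TPM in forebrain at E11.5 and 15.65 and 21.34 TPM at P0, a log2 change of 1.46 (SE 0.135, limma adjusted p = 7.62e-12). Pcdhga1 started lower, at 0.88 and 1.05 TPM, and reached 8.10 and 9.70 TPM, a log2 change of 2.33 (SE 0.113). The median log2 change in forebrain was 1.53 for gamma A members and 0.89 for gamma B members. Pcdhgb6, the most abundant gamma B member in brain, had 7.49 and 8.99 TPM in hindbrain at E11.5 and 14.31 and 13.63 TPM at P0, a log2 change of 0.70 (SE 0.126) that did not reach the threshold of 1. In forebrain its change was 1.13, and it was 0.88 without replicate 1 of forebrain at E11.5 and 0.91 under quantile normalization. At P0 in forebrain the gamma A members had mean levels from 4.53 TPM (Pcdhga9) to 18.5 TPM (Pcdhga11). Pcdhgb8, which GENCODE lists as a polymorphic pseudogene, was 0.53 and 0.98 TPM in midbrain at E11.5 and 0.43 and 0.36 TPM at P0. Its log2 change was -0.32 in midbrain (SE 0.0923) and 0.02 in forebrain (limma adjusted p = 0.846), and its highest value in any library was 1.05 TPM.

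The 5 C-type members differed in level and in the size of their changes. Pcdhac2, whose product is known to serve serotonin neurons, had 1.31 and 1.98 TPM in forebrain at E11.5, 8.56 and 8.46 TPM at E14.5 and 19.85 and 24.35 TPM at P0. At P0 it was at 22.58 and 22.19 TPM in midbrain and 23.92 and 23.77 TPM in hindbrain, so the forebrain libraries spanned the values of the other regions. Its log2 change from E11.5 was 3.13 in forebrain, 3.08 in midbrain and 3.20 in hindbrain (SE 0.10 in each). Pcdhac1 stayed low, with 0.53 and 0.83 TPM in forebrain at E11.5 and 2.85 and 2.81 TPM at P0. Its log2 change was 1.19 in forebrain, where it was called, and 0.81 in midbrain and 0.99 in hindbrain, below the threshold of 1. Under quantile normalization the forebrain change was 0.76 and was not called. The share of the alpha sum held by Pcdhac1 in forebrain moved from 12.6% at E11.5 to 2.56% at P0, and that of Pcdhac2 from 30.6% to 19.8%. In hindbrain the share of Pcdhac2 was 16% at E11.5 and 21.0% at P0. Serotonin neuron markers (5 genes) summed to 5.8 to 7.7 TPM in forebrain and 32.8 to 34.9 TPM in hindbrain at E11.5, and to 3.4 to 10.4 TPM and 45.5 to 52.9 TPM at P0.

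Pcdhgc3 was abundant from the start. In forebrain it had 26.59 and 39.12 TPM at E11.5 and 68.73 and 76.43 TPM at P0, a log2 change of 1.14 (SE 0.133, limma adjusted p = 1.77e-09). Without replicate 1 of forebrain at E11.5 the change was 0.87, below the threshold. In midbrain it had 25.92 and 27.37 TPM at E11.5, 59.4 and 56.44 TPM at E14.5 and 50.96 and 45.5 TPM at P0. The midbrain change from E11.5 to P0 was 0.83 and the hindbrain change 0.65, both below the threshold of 1. Pcdhgc5 was low, with 0.46 and 0.68 TPM in forebrain at E11.5 and 4.35 and 5.17 TPM at P0, and its log2 change was 1.88 in forebrain, 1.89 in midbrain and 1.65 in hindbrain.

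Pcdhgc4, which is known to be needed for the survival of some inhibitory neurons, was the most abundant member in every brain region at P0. It had 40.32 and 33.70 TPM in forebrain at E11.5 and 156.78 and 144.45 TPM at P0, a log2 change of 2.0 (SE 0.178, limma adjusted p = 3.27e-12). The change was 2.83 in midbrain and 2.22 in hindbrain. Its level did not follow a steady course over the stages. In forebrain it had 50.86 and 55.00 TPM at E14.5, 132.96 and 121.61 TPM at E15.5 and 89.29 and 68.70 TPM at E16.5. The E15.5 libraries are in the Gm14760-high group and those at E14.5 and E16.5 in the low group. The low E13.5 forebrain libraries had 82.94 and 66.33 TPM and the high E12.5 libraries 54.89 and 54.79 TPM. The forebrain libraries at P0 are in the low group. Under the hindbrain label the means were 72.2 TPM at E12.5, 111.4 at E13.5 and 152.4 at E15.5, all high. In the low group they were 36.3 TPM at E11.5, 79.1 at E14.5 and 107.3 at E16.5. Stage and group changed together in these libraries, so their parts cannot be told apart. At P0 in hindbrain the library with low Gm14760 had 150.27 TPM of Pcdhgc4 and the one with high Gm14760 had 195.83 TPM. Over the 56 tested members, the ratio of the high to the low library of that pair had a median of 0.925 and ran from 0.712 to 1.30, with Pcdhgc4 at the upper end. Its share of the gamma sum at P0 was 38.5% in forebrain, 51.4% in midbrain and 43.2% in hindbrain. With the Gm14760 group as a term, a setting chosen after seeing the data, its changes from E11.5 to P0 were 2.0 in forebrain, 2.45 in midbrain and 2.03 in hindbrain. Hindbrain at P0 was the only group with libraries of both kinds, so this term rests on that 1 pair, with 1 disputed stage label. The forebrain value could not move, since its libraries at both stages are in the low group. In GENCODE M21 Pcdhgc4 has 1 transcript with 153 bases of its own and 2119 bases of the constant exons shared by the gamma cluster. The sources used here do not name the gene models behind the deposited values, so reads from constant exons could have been assigned to it, and their part in its level was not tested. The same limit holds for the levels and sums of the other alpha and gamma members, which share constant exons too.

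**Figure D3:**
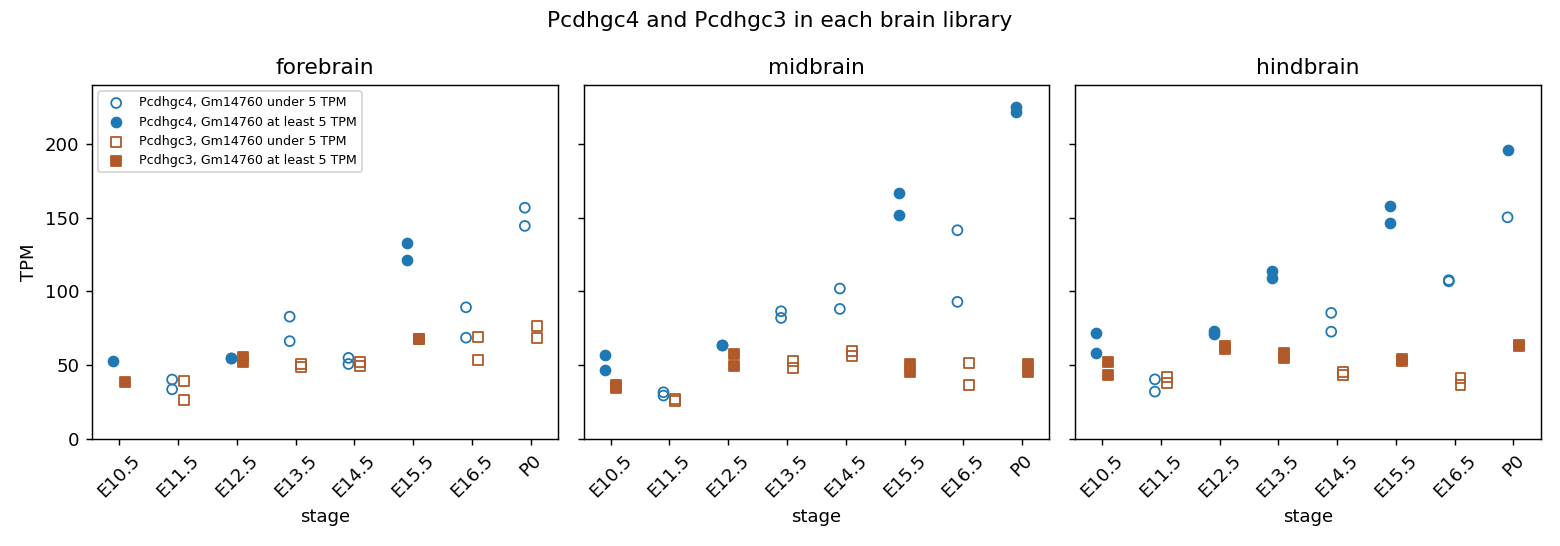
TPM of Pcdhgc4 (circles) and Pcdhgc3 (squares) in each brain library by stage, filled where Gm14760 was at least 5 TPM. Pcdhgc4 is higher in the filled E15.5 libraries than in the open libraries at E14.5 and E16.5 under the same region label, and it reaches up to 225.23 TPM in midbrain at P0, while Pcdhgc3 stays under 80 TPM.

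In midbrain and hindbrain many more members rose before E14.5 than after it, and in forebrain the 2 counts were closer. From E11.5 to E14.5, 24 members rose in forebrain against 8.67% of all genes, 44 in midbrain against 12.6% and 29 in hindbrain against 10.2%. From E14.5 to P0, 17 members rose in forebrain against 10.5% of all genes, 6 in midbrain against 6.09% and 2 in hindbrain against 4.40%. The 17 in forebrain were 11 alpha, 3 beta and 3 gamma members. The 6 in midbrain were Pcdha1, Pcdha2, Pcdha4, Pcdha5, Pcdhac2 and Pcdhgc4, and the 2 in hindbrain, a share near the background, were Pcdhac2 and Pcdhgc4. In forebrain the largest were Pcdha4 at 1.76 and Pcdha5 at 1.52, and the beta and gamma members were Pcdhb9, Pcdhb12, Pcdhb20, Pcdhga1, Pcdhgc4 and Pcdhgc5. With the Gm14760 group as a term, the changes of Pcdhgc4 in this later period were 0.85 in midbrain and 0.92 in hindbrain, below the threshold of 1. That term rests on the hindbrain pair at P0 alone. The hindbrain change was also below it without replicate 1 of hindbrain at E14.5, at 0.996. Giving the columns with 2 stage labels the stage of their sample record left 2 members in midbrain and 0 in hindbrain, where Pcdhac2 then changed by 0.91. The beta sum in hindbrain was 87.61 and 91.45 TPM at E14.5 and 90.66 and 84.45 TPM at P0, a ratio of 0.978, while with the stage of the record the P0 libraries would be at 90.66 and 105.86 TPM. In forebrain it went from 44.34 and 44.67 TPM to 80.18 and 86.67 TPM, a ratio of 1.87.

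Averaged over the 7 stages from E11.5 to P0, with each stage weighted equally, no member reached a log2 difference of 1 between brain regions. By the limma rule 0 members were called between forebrain and midbrain, against 2.73% of all genes, 0 between midbrain and hindbrain, against 0.970%, and 0 between forebrain and hindbrain, against 4.32%. At an unadjusted p below 0.05, in either direction, the counts were 51, 32 and 51, where 66.9%, 41.8% and 72.2% of all genes passed. By the adjusted p alone, 50 members had lower values in forebrain than hindbrain, against 44.5% of all genes, and 49 were lower in forebrain than in midbrain, against 39.1%. Between midbrain and hindbrain, 23 were lower in midbrain, against 23.1% of all genes, a share near the background, and the number was 15 with median-of-ratios scaling and 1 under quantile normalization. Without E15.5 the numbers were 50, 49 and 26. The median forebrain to hindbrain difference was -0.55 for alpha members, -0.51 for beta members and -0.22 for gamma members, against -0.06 for all genes. Pcdha2 had the largest difference, -0.84 (SE 0.0363), and Pcdhac1 was the 1 member that was higher in forebrain by the adjusted p, at 0.28 (SE 0.0328, limma adjusted p = 3.16e-09). In the same contrast 2 of 12 neuron markers were called lower in forebrain and 2 of 10 progenitor markers were called higher, and their part in the result was not tested.

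This average covered a large change with stage. At E11.5 every forebrain library lay below every hindbrain library for 47 of the 56 members, against 43.9% of all genes, and at E14.5 for 51 members, against 50.3%. At P0 this held for 16 members, against 36.9% of all genes, and for 14 others every forebrain library lay above every hindbrain library, against 23.3%, a share near the background. The median ratio of forebrain to hindbrain TPM for alpha members was 0.339 at E11.5 and 1.002 at P0. For beta members it was 0.375 and 0.936, and for gamma members 0.710 and 1.01. Pcdha4 had mean levels of 0.175 TPM in forebrain and 0.845 TPM in hindbrain at E11.5, 2.85 and 8.39 TPM at E14.5, and 12.02 and 13.01 TPM at P0. Neuron markers moved in the same way, with sums of 1287 to 1306 TPM in forebrain against 2672 to 2854 TPM in hindbrain at E11.5, and 6663 to 7348 TPM against 6681 to 6755 TPM at P0.

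The difference between the forebrain and hindbrain changes was then tested. For the change from E11.5 to P0, 0 members were called as larger in forebrain than in hindbrain by the limma rule, against 5.02% of all genes. At an unadjusted p below 0.05 there were 36, of which 35 were larger and 1 smaller in forebrain, and 41.9% of all genes passed that level in either direction. By the adjusted p alone, 29 members were larger in forebrain, against 19.9% of all genes. Pcdha1 was smaller there on the log2(TPM + 1) scale, at -0.49 (SE 0.138). Its ratio was not smaller: the mean went from 0.01 to 1.765 TPM in forebrain and from 0.09 to 3.195 TPM in hindbrain. The count by the limma rule was 2 without replicate 2 of forebrain at E11.5, and 1 without replicate 1 of forebrain at P0, of hindbrain at E11.5 or of hindbrain at P0. It was much larger with a pseudocount of 0.1, as given in the closing section, so it depends on the pseudocount. Against midbrain 0 members were called in either direction, compared with 5.0% of all genes. At an unadjusted p below 0.05 there were 12, in either direction, where 37.1% of all genes passed. The period was then split at E14.5, a contrast chosen after seeing the data. From E11.5 to E14.5 0 members rose more in forebrain than in hindbrain by the limma rule, against 2.44% of all genes. At an unadjusted p below 0.05 there were 19, of which 2 rose more and 17 less in forebrain, and 37.6% of all genes passed that level in either direction. By the adjusted p alone 13 members rose less in forebrain in that period, against 13% of all genes, and they were 7 alpha and 6 beta members. These differences are on the log2(TPM + 1) scale, which understates the change of low genes. The ratio of sums was not smaller in forebrain over these stages, at 7.28 for alpha and 4.61 for beta. In hindbrain it was 7.01 and 3.78. From E14.5 to P0, 5 members rose more in forebrain, against 3.98% of all genes, and by the adjusted p alone 35 did, against 20.5%. The 35 were 10 alpha, 20 beta and 5 gamma members. The 5 were Pcdha4 (1.18, SE 0.174, limma adjusted p = 2.13e-06), Pcdha5 (1.09), Pcdha6 (1.02), Pcdha7 (1.02) and Pcdhb9 (1.04). Under quantile normalization 0 members passed the threshold and with median-of-ratios scaling 2 did. Without replicate 2 of forebrain at P0, 2 members passed, and without the Gm14760-high hindbrain library at P0, 3 did.

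Within the alternate alpha members the forebrain to hindbrain ratio at P0 rose broadly along the chromosome. Pcdha1, the most upstream, had 1.64 and 1.89 TPM in forebrain and 3.04 and 3.35 TPM in hindbrain at P0, a ratio of means of 0.552. Pcdha12, the most downstream, had 8.77 and 10.36 TPM in forebrain and 7.42 and 6.93 TPM in hindbrain, a ratio of 1.33. In between, in chromosome order, Pcdha2 stood at 0.758, Pcdha3 at 0.770, Pcdha4 at 0.924, Pcdha5 at 1.08, Pcdha6 at 0.999, Pcdha7 at 1.002, Pcdha9 at 1.13, Pcdha11 upstream at 1.28 and Pcdha11 downstream at 1.24. Pcdha5 and the upstream Pcdha11 thus stood above their downstream neighbours. The libraries did not overlap for Pcdha1, Pcdha2 and Pcdha3, which were lower in forebrain, nor for both Pcdha11 rows and Pcdha12, which were higher. Of all genes, 36.9% lay wholly lower and 23.3% wholly higher in forebrain at P0, so nothing is read from this lack of overlap. Across the 11 tested alternate alpha members, Spearman's rho between position and this ratio was 0.964 at P0, 0.936 at E14.5 and 0.727 at E11.5. These points come from the same libraries and share the constant exons, so rho is a description. With only the Gm14760-low hindbrain library at P0, rho was also 0.964. The forebrain to midbrain ratio gave 0.891 at P0, where it gave 0.608 for beta members and 0.026 for gamma A and B members. The midbrain to hindbrain ratio at P0 gave 0.555 for alternate alpha members, -0.408 for beta members and -0.289 for gamma A and B members. For the forebrain to hindbrain ratio of the 19 gamma A and B members, rho was 0.735 at E11.5, 0.516 at E14.5 and -0.216 at P0. For the 21 tested beta members it was -0.461, -0.366 and 0.116. Whether these values differ between clusters was not tested. Neighbouring members were not tested for their differences in this ratio.

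In liver the clusters were almost silent but for 2 gamma members. The brain libraries were higher than liver for 52 of the 56 members, against 44.0% of all genes: 12 alpha, 19 beta and 21 gamma members. Of the 56, 48 had no liver library at 1 TPM and passed the filter only through brain, so they had to differ. Nothing is read from this count, nor from the median difference and the rescaled count given below. The 4 not called were Pcdha1 at 0.82, Pcdhb13 at 0.94, Pcdhb14 at 0.86 and Pcdhgb8 at 0.66. The largest differences were those of Pcdhgc4, at 3.99 (SE 0.055), and Pcdhga11, at 3.47 (SE 0.0416). The median difference was 2.24 on the log2 scale, against 0.82 over all genes. With median-of-ratios scaling the median of all genes moved to 0.02 and 52 members were called. No alpha or beta member reached 1 TPM in any of the 14 liver libraries, and the alpha sum was at most 0.30 TPM. Pcdhac2 was listed at 0 in both liver libraries at P0. Pcdhgc3 and Pcdhgc4 were at 1 TPM or more in all 14 libraries, and 8 gamma members reached that level in at least 1.

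From E11.5 to P0 in liver 3 members fell, against 38.2% of all genes, and none rose. A member at 1 TPM or less at E11.5 cannot fall by 1 on the log2(TPM + 1) scale. Most members were below that level, so the count says little about them. The ratio of the P0 sum to the E11.5 sum was 0.229 for alpha, 0.397 for beta and 0.191 for gamma. Pcdhgc3 had 12.17 and 14.75 TPM at E11.5 and 2.56 and 2.46 TPM at P0, a log2 change of -2.04 (limma adjusted p = 5.35e-16). Pcdhgc4 had 19.44 and 15.80 TPM at E11.5 and 4.25 and 3.03 TPM at P0, a log2 change of -2.01 (limma adjusted p = 1.78e-12). Pcdhgb6 had 1.42 and 1.63 TPM and then 0.30 and 0.13 TPM, a log2 change of -1.06. The median of all genes in this contrast was -0.69, and with median-of-ratios scaling it was -0.01. Pcdhgc3 then changed by -1.11, Pcdhgc4 by -1.03 and Pcdhgb6 by -0.79, the last below the threshold. Without replicate 2 of liver at E11.5 or at P0 the change of Pcdhgb6 was -0.998 and -0.96, also below the threshold. Much of the fall was over by E14.5, when Pcdhgc3 was at 2.23 and 2.24 TPM and Pcdhgc4 at 1.93 and 3.16 TPM. Over the same stages in liver the hepatocyte markers went from 11897 to 12897 TPM at E11.5 to 156223 to 162887 TPM at P0.

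Protocadherins that lie outside the clusters were compared in the same way. Of 12 nonclustered protocadherins 9 rose and 1 fell from E11.5 to P0 in each of the 3 regions. Of all genes, 19.2% rose and 11.8% fell in forebrain, 18.3% and 15.1% in midbrain and 16.2% and 11.8% in hindbrain. Pcdh11x, an X-linked adhesion gene, was at 0.71 to 1.23 TPM in forebrain at E11.5 and 13.69 to 15.34 TPM at P0, a log2 change of 2.99 (SE 0.144). Pcdh15, known for its role in hair cells of the inner ear, changed by 2.97 in forebrain and 3.17 in midbrain. Pcdh18 fell, by 1.55 in forebrain and 1.57 in hindbrain on the log2 scale.

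CTCF binds the clustered promoters and their enhancers, and cohesin draws them together. Of 11 CTCF and cohesin genes none rose, and 5 fell in forebrain, 7 in midbrain and 5 in hindbrain, against 11.8%, 15.1% and 11.8% of all genes called lower there. Ctcf itself was at 96.31 to 134.57 TPM in forebrain at E11.5 and 53.36 to 60.45 TPM at P0. Its log2 change was -0.99 in forebrain, -1.11 in midbrain, where it was called, and -0.83 in hindbrain. Wapl, which releases cohesin from DNA, fell by 1.48 in forebrain, 1.74 in midbrain and 1.39 in hindbrain on the log2 scale. Pds5a, a cohesin regulator, fell by 1.53, 1.98 and 1.54.

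Of 11 genes of promoter methylation and silencing, 4 fell in forebrain, 5 in midbrain and 3 in hindbrain, against the same 11.8%, 15.1% and 11.8% of all genes, and none rose. Dnmt3b, the methyltransferase known to methylate clustered protocadherin promoters in the embryo, was at 9.47 to 10.95 TPM in forebrain at E11.5 and 2.25 to 2.33 TPM at P0, a log2 change of -1.77 (SE 0.124, limma adjusted p = 6.54e-15). It changed by -2.14 in midbrain and -1.33 in hindbrain. Rest, a repressor of neuronal genes, fell by 1.70 in forebrain on the log2 scale. Smchd1, a chromatin silencer of these clusters, changed by -0.97 in forebrain, -1.23 in midbrain, where it was called, and -0.997 in hindbrain, where it was not. Setdb1, a histone methyltransferase, changed by -0.71, -0.88 and -0.72, below the threshold in all 3 regions. Progenitor markers (10 genes) moved with these lists, with 8 called lower in forebrain, 8 in midbrain and 6 in hindbrain, and their part in the result was not tested.

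Of 18 genes of known protocadherin partners and signalling, 7 rose in forebrain, 7 in midbrain and 6 in hindbrain, against 19.2%, 18.3% and 16.2% of all genes, and none fell. Ptk2b, a kinase bound by the alpha and gamma cytoplasmic tails, was at 0.39 to 0.52 TPM in forebrain at E11.5 and 12.05 to 26.76 TPM at P0, a log2 change of 3.71 (SE 0.207), and its change was 1.40 in midbrain and 0.93 in hindbrain. Nlgn1, a synaptic adhesion protein, rose by 2.80, 3.24 and 2.51. Of 14 tested genes that neighbour the clusters on chromosome 18, 2 rose in each region, a share no higher than the 19.2%, 18.3% and 16.2% of all genes that rose. These were Rell2, at 3.83 to 4.26 TPM in forebrain at E11.5 and 73.52 to 85.70 TPM at P0, and Fchsd1, with a log2 change of 1.78 there. Taf7, a general transcription factor gene that lies between the beta and gamma clusters, changed by -0.58 in forebrain, -0.91 in midbrain and -0.77 in hindbrain, below the threshold in each.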

How the data were processed

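The authors deposited RNA-seq as 1 table of TPM values for 43346 genes and 61 libraries. The submitters' processing notes list STAR 2.4.0k, RSEM 1.2.23 and mm10, without roles, and the annotation they used is not stated in any source used here. The deposited TPM columns summed to between 997627 and 1000000. Symbols and positions came from GENCODE M21, and 8 member identifiers differed in version. Libraries were grouped by column headers, and 4 columns with a stage unlike their record kept the header's stage without a replicate number. The 18655 genes that reached 1 TPM in 2 or more libraries were analysed as log2(TPM + 1) with limma 3.58.1 in R 4.3.3, with 1 mean per group, a trend and 30 residual degrees of freedom. Two-sided p-values were adjusted by Benjamini-Hochberg over all these genes within each contrast. The effective number is the exponential of the Shannon entropy of shares. The fit was tested on simulated data. The alternatives were other pseudocounts, filters, scalings, stage assignments, a replicate block and left-out libraries. Those using Gm14760 and the split at E14.5 were chosen after seeing the data. So was the use of other stage assignments for the stage of the highest mean. The members and lists were chosen with earlier results of these data known. All members could be named, with full statistics for the C-type members, the 3 most abundant of each class and the 2 of largest change per comparison. Other lists gave up to 2 called genes of largest change, and Ctcf, Dnmt3b, Smchd1, Setdb1 and Taf7 always. Pcdh18, Hoxb3 and Gm14760, and the values given for Pcdhgb8 and for the alpha members in chromosome order, were chosen after their values were seen.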

Additional observations from a re-analysis of the deposited data

Results flagged for a closer look

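Some members changed in opposite directions in brain and liver from E11.5 to P0, with every P0 library above every E11.5 library in brain and below in liver. The difference between the tissues was not tested. Pcdhgb6 changed by 1.13 on the log2 scale in forebrain and 1.05 in midbrain, against -1.06 in liver. The liver change was -0.79 with median-of-ratios scaling and -0.84 under quantile normalization, both below the threshold. In forebrain it was 0.91 under quantile normalization and 0.88 without replicate 1 of E11.5. The median of all genes in liver was -0.69. Pcdhgc3 changed by 1.14 in forebrain against -2.04 in liver. Pcdhgc4 changed by 2.0 in forebrain, 2.83 in midbrain and 2.22 in hindbrain, against -2.01 in liver.

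Members whose change from E14.5 to P0 was larger in forebrain than in hindbrain by the limma test of the difference itself were Pcdha4 (1.18), Pcdha5 (1.09), Pcdha6 (1.02), Pcdha7 (1.02) and Pcdhb9 (1.04). Of all genes, 3.98% were called in this way, and the contrast was chosen after seeing the data. Leaving out 1 library at a time gave 2 to 7 such members, and the count also fell with other scalings, as given above. Pcdha5 was at 0.93 under quantile normalization and at 0.94 without replicate 2 of forebrain at P0, both below the threshold.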

How the results depend on the processing

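None of the log2 changes checked in the alternative runs reversed. The order of stages in hindbrain did turn for beta with the columns with 2 stage labels. This held for the stage of the highest means and for the beta sum at P0 against E14.5. The counts below are of called members. With a pseudocount of 0.1, 2 were called between forebrain and midbrain, 4 between forebrain and hindbrain, 25 from E11.5 to P0 in liver, 43 from E11.5 to E14.5 in forebrain, 4 from E14.5 to P0 in hindbrain, 22 for the forebrain to hindbrain difference in change from E11.5 to P0 and 12 for that from E14.5 to P0. Quantile normalization gave 10 from E14.5 to P0 in forebrain and 0 for the difference from E14.5 to P0, where median-of-ratios scaling gave 2. The replicate block, leaving out the columns with 2 stage labels, the libraries with low Gm14760 alone and the Gm14760 group as a term each gave 1 in hindbrain from E14.5 to P0 and 3 for the difference from E14.5 to P0. With the stage of the sample record, the counts from E14.5 to P0 were 2 in midbrain and 0 in hindbrain, and both differences in change gave 2. Replicate numbers did not pair the libraries: over 325 pairs of the 26 numbered groups the correlation of deviations had a median of 0.00327, from -0.634 to 0.32, and 27 were over 0.1.

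The ratio of sums at P0 to E11.5 under median-of-ratios scaling was 17.2 for alpha, 7.33 for beta and 2.66 for gamma without Pcdhgc4 in midbrain, and 11.6, 4.03 and 2.06 in hindbrain. With the stage of the record it was 14.7, 6.97 and 2.57 in midbrain, and 4.15 for beta and 1.67 for gamma in hindbrain. Leaving out 1 library at a time gave 1 to 2 members in hindbrain from E14.5 to P0, 0 to 2 for the difference from E11.5 to P0 and 2 to 7 for that from E14.5 to P0. For these alternatives the cause was not tested. Depth cannot be judged from TPM, and values near 0 are the least precise.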
